A study of Saccharomyces cerevisiae with 24 samples.

Results

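The genes described here encode the mitochondrial respiratory chain and ATP synthase of budding yeast, with some of the factors that assemble them. They were taken by symbol: every gene whose name is COX, QCR, ATP or SDH followed by a number, together with COR1, CYT1, RIP1, CYC1 and CYC7, each read through 1 probe set, that of the highest mean. This gave 64 of the 5656 genes that the arrays name through a probe set of 1 gene. Of the 64 genes, 59 are nuclear and 5 (COX1, COX2, COX3, ATP6 and ATP8) are encoded by the mitochondrial genome. By role they comprise 4 subunits of complex II, 9 of complex III, both isoforms of cytochrome c, 13 subunits of complex IV, 5 genes of the F1 part and 10 of the Fo part and stalks of ATP synthase, 4 assembly factors of complex II, 10 of complex IV and 6 of ATP synthase, and SDH9, which was kept apart.

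Complex II (succinate dehydrogenase) passes electrons from succinate to ubiquinone, complex III passes them on to cytochrome c, and complex IV (cytochrome c oxidase) passes them to oxygen. Complexes III and IV pump protons across the inner mitochondrial membrane, and ATP synthase uses the returning protons to make ATP. Budding yeast lacks a proton-pumping complex I, represses many of these genes while it ferments glucose, and switches some subunits between isoforms with oxygen: CYC1 and COX5A are the aerobic forms and CYC7 and COX5B the hypoxic forms.

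The study measured RNA of the MATa haploid laboratory strain BY4730 on 24 one-colour expression arrays after 120 min of exposure to DNA-damaging agents or to general stresses. Bleomycin, which breaks DNA strands, was given on 3 arrays at 0.15, 0.1 and 0.15 U/ml. The alkylating agent methyl methanesulfonate (MMS) was given on 3 arrays at 0.12, 0.12 and 0.14%, and the crosslinking agent cisplatin on 2 arrays at 500 and 650 µg, a label without a volume. NaCl was given on 3 arrays at 10, 8 and 9%, and ethanol on 2 arrays at 15%. The protocol text gives other amounts for cisplatin and NaCl. The 11 control arrays were cultures with the solvent DMSO or with medium only, which the labels do not tell apart. Each treated array was set against the control array of its own day. The date of 1 ethanol array differs in its year from that of the control assumed to be its partner. Bleomycin shares 2 same-day controls with NaCl and 1 with cisplatin. The labels do not say that arrays of a group came from separate cultures, so p-values measure only the spread between these arrays, which may be technical.

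Signals are log2 values after quantile normalization across the 24 arrays. They are compared for 1 gene between arrays, never between genes. A gene was called higher or lower when the Benjamini-Hochberg adjusted p of a limma fit over 5171 genes, with the day as a block, was below 0.05. Of the 64 genes, 58 passed a filter on mean signal at the 20th percentile (log2 3.79). ATP10, COX19, COX2, COX3, ATP6 and ATP8 did not. In bulk RNA, fewer cells and less RNA per cell cannot be told apart.

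The arrays differ in their signals at the 5′ and 3′ ends of the ACT1 message, and the cause was not tested. On 6 of the 11 control arrays the ACT1 5′ probe set read 4.76 to 5.93, against 9.46 to 10.6 on the other 5. The 3 MMS arrays had an ACT1 5′ signal higher than their same-day controls by 3.21, 2.82 and 4.07. NaCl arrays 2 and 3 had an ACT1 3′ signal of 7.98 and 8.21, where the third NaCl array had 10.97 and the controls 9.37 to 11.9. These 2 arrays and control 11 (9.37) are called the low ACT1 3′ arrays, at a limit of 10. Of the markers of the strain in the controls, the a-factor gene MFA1 read 12.3 ± 0.402 (SD, n = 11), while the deleted URA3 and MET17 read 3.43 ± 0.245 and 3.89 ± 0.215. LEU2, also deleted in this strain, read 5.68 ± 0.400.

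Respiratory chain genes themselves varied among the control arrays. The range of a gene over the 11 controls had a median of 1.67 in the 58 genes and 1.44 in all genes, and 23 of the 58 ranged over more than 2 log2 units (28.8% of all genes did). COX26, a small subunit of complex IV, was the steadiest at a range of 0.42, and QCR8, a complex III subunit, varied most at 4.11. Among others, SDH2, CYC1, COX5A, COX15, RIP1, COR1, ATP2 and ATP5 were on average lower in the controls with a low ACT1 5′ signal. ATP14, SDH6, COX1, ATP23 and COX17 were higher in them. SDH2, the iron-sulfur subunit of complex II, had the largest difference of the class means, 2.36. In the 5 controls with a high ACT1 5′ signal it read 7.5 to 8.00, and in the 6 others 4.62 to 6.74. Control 2 did not follow its class in several of these genes. Its ACT1 5′ signal was low (5.24), but ATP2 read 8.56, COX15 8.34, ATP5 7.11 and CYC1 7.15 there. The controls with a high signal read 8.07 to 8.49, 8.14 to 8.65, 6.81 to 7.23 and 6.93 to 7.70 in these genes.

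Most respiratory chain genes were lower under NaCl. Of the 58 genes, 44 were called lower and 4 higher, where 37.6% of all genes tested were called lower, 14.1% higher and 51.7% in either direction. The median difference of the 58 genes was -1.43 log2 units, against -0.45 for all genes. All 9 complex III genes fell, with a median of -1.71, as did both cytochrome c genes. In complex II 3 of 4 genes fell, in complex IV 9 of 11 and in F1 4 of 5. In the Fo part and stalks 5 of 8 fell and 1 rose. Among assembly factors, 7 of 9 of complex IV and 3 of 4 of complex II fell, while those of ATP synthase were split, with 2 of 5 higher and 2 of 5 lower. Structural genes had a median of -1.64 and assembly factors one of -1.03. This difference between the classes was not tested. On all 3 NaCl arrays 12 genes lay below every control (5.2% of all genes) and 0 lay above (2.19%).

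**Figure D1:**
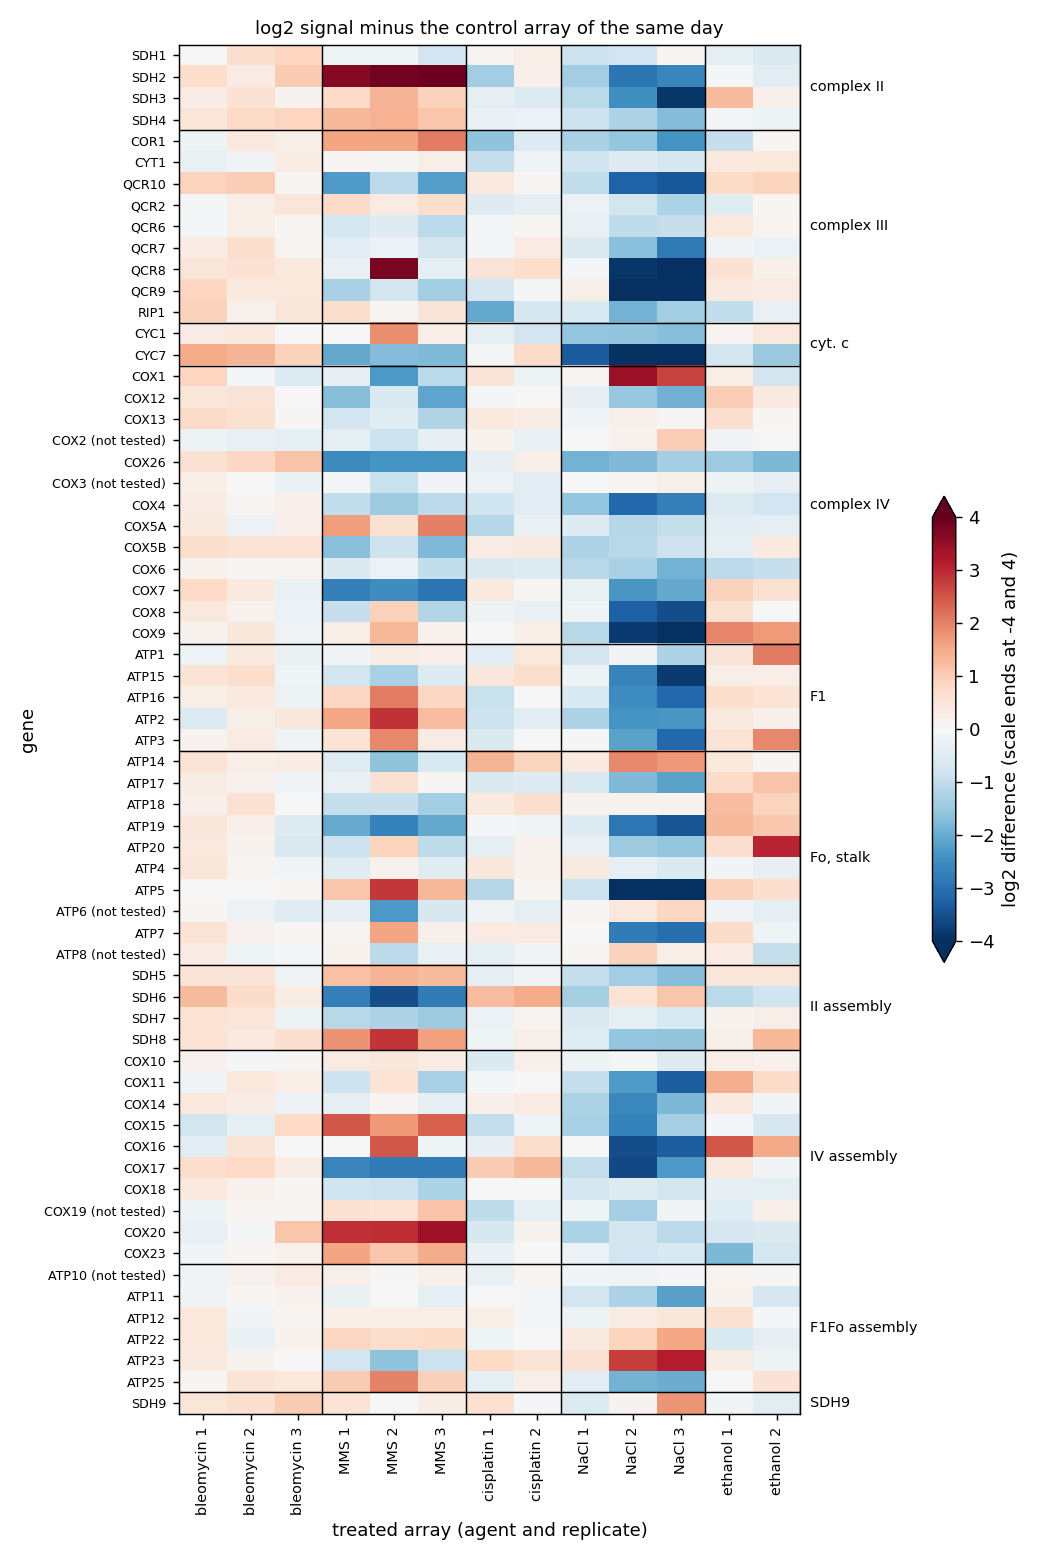
Log2 signal of each of the 64 genes (rows, in blocks by complex) minus the control array of the same day, for the 13 treated arrays (columns); colour gives the difference, red higher and blue lower, and the scale ends at -4 and 4. NaCl columns 2 and 3 are blue in most rows, bleomycin and cisplatin columns are pale, and the MMS columns hold both strong red and strong blue rows.

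CYC7, the hypoxic form of cytochrome c, fell furthest. It read 7.18, 7.91 and 8.25 at the lowest, median and highest of the 11 controls and 4.44, 3.80 and 3.39 on the 3 NaCl arrays. All 3 NaCl arrays lay far below every control, and the groups did not overlap. The fitted difference was -4.11 ± 0.297 (SE; limma adjusted p = 1.55e-05). On NaCl arrays 2 and 3 the signal was as low as that of the deleted URA3 and MET17 in the controls, so no fold is given. Its aerobic partner CYC1 read 5.59, 5.66 and 5.83 under NaCl, within the control range of 3.97 to 7.70. Against their own days the 3 arrays were lower by a like amount, at -1.56, -1.57 and -1.70, and the fit gave -1.64 ± 0.288 (adjusted p = 0.00207). This call depends on the block: CYC1 was at 0.13 with the ACT1 5′ class (below 7.5 or not) as the block in place of the day and at -0.57 with no block, neither called.

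Both forms of the oxygen-regulated subunit of complex IV were called lower under NaCl, COX5A less firmly. COX5A read 6.50, 6.33 and 6.52 and overlapped the controls, which read 4.99 to 7.91. It was lower by 0.88 ± 0.273 log2 units in the fit, a call at adjusted p = 0.0200. It turned to 0.52 with the ACT1 5′ class as the block, and was not called there, with no day block (-0.13), without the low ACT1 3′ arrays (-0.69), or without any 1 of NaCl arrays 2 and 3 and controls 3 and 4 (-0.84 to -0.78). COX5B read 6.47, 6.21 and 6.69, below all controls (6.78 to 7.76), and its difference was -1.08 ± 0.246. COX4, a nuclear-encoded subunit, read 6.66, 5.03 and 5.82 against controls of 6.90 to 8.56, and differed by -2.49 ± 0.286. COX6 read 7.08, 6.97 and 6.68 against 7.11 to 8.58, and differed by -1.42 ± 0.232. Both genes lay below every control on all 3 arrays. COX26 also did, with 6.13, 6.07 and 6.68 against 7.60 to 8.03.

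The other large falls came mainly from 2 arrays. ATP5, the subunit of the stalk that ties F1 to Fo, read 6.26 on NaCl array 1 and 2.63 and 2.84 on arrays 2 and 3. COX9, a complex IV subunit, read 7.78, then 4.92 and 4.98. QCR8 read 9.16, then 5.62 and 5.28. In each gene NaCl array 1 lay within the range of the controls, and ATP5 on the other 2 arrays read below the signal filter. The fitted differences were -3.10 ± 0.585 for ATP5, -3.09 ± 0.523 for COX9 and -2.72 ± 0.844 for QCR8, with adjusted p of 0.00275, 0.00177 and 0.0200. Without the low ACT1 3′ arrays ATP5 was at -0.90 and QCR8 at -0.07, neither called, and COX9 at -1.11, called. The QCR8 call was also lost without any 1 of NaCl arrays 2 and 3 and controls 3 and 4, and its second probe set was lower than the same-day controls by a mean of 0.47 only. QCR9, named here after its values were seen, reached -3.68 ± 0.880 while NaCl array 1 was 0.25 higher than its own control.

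The catalytic genes were less even. ATP2, the beta subunit of F1, read 7.34, 5.84 and 5.94 and differed by -1.90 ± 0.376, while ATP1, the alpha subunit, read 7.11, 7.5 and 6.54 and was not called at -0.75 ± 0.323. SDH2 read 5.36, 4.73 and 4.97 and differed by -2.28 ± 0.323. SDH1, the flavoprotein of complex II, read 6.31, 6.35 and 7.31 and was not called at -0.47 ± 0.247. COR1, the core subunit of complex III, read 4.03, 3.75 and 3.37 and differed by -1.74 ± 0.273. RIP1, the Rieske iron-sulfur protein, read 5.89, 6.13 and 6.53 and differed by -1.35 ± 0.306. SDH2, COR1 and RIP1 overlapped the controls, whose own ranges were 4.62 to 8.00, 3.71 to 6.19 and 5.78 to 8.35. With the ACT1 5′ class as the block none of ATP2 (-0.51), SDH2 (-0.44), COR1 (-0.55) and RIP1 (-0.16) was called under NaCl. ATP2 (-0.93) and RIP1 (-0.88) also lost the call without the low ACT1 3′ arrays, and RIP1 without NaCl array 2 (-1.12).

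The 4 genes called higher under NaCl were ATP23, COX1, ATP14 and ATP22. ATP23, a protease and chaperone for ATP synthase assembly, read 6.32, 8.69 and 8.80 and differed by 2.11 ± 0.427. The mitochondrially encoded COX1 read 5.46, 8.58 and 7.66 and differed by 1.97 ± 0.626. ATP14, a stalk subunit, differed by 1.34 ± 0.367, and ATP22, a factor for ATP synthase assembly, by 0.91 ± 0.248. In all 4 the same-day rise was larger on arrays 2 and 3 than on array 1. Without the low ACT1 3′ arrays none was called, at 0.46, -0.26, 0.31 and 0.17 for ATP23, COX1, ATP14 and ATP22. COX1, ATP14 and ATP22 also lost the call without any 1 of control 3, NaCl array 2 and NaCl array 3, and COX1 without control 4. A second probe set of ATP14 moved the other way, by a mean of -2.34 from the same-day controls.

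The NaCl result leans on arrays 2 and 3, the arrays with the low ACT1 3′ signal. A fit without them rests on NaCl array 1 alone, which had the highest labelled amount, 10%. Their ACT1 5′ signal was also lower than that of their same-day controls, by 3.93 and 3.29 log2 units, while that of array 1 was 0.87 higher. With the ACT1 5′ class as the block, 30 genes were called lower and 3 higher, with 34.5% of all genes called in either direction. The median was -0.78 (all genes -0.20), and 32 of the 48 calls were the same. The median of the 58 genes against the same-day control was -0.59 on array 1, -1.55 on array 2 and -1.71 on array 3, where all genes gave -0.08, -0.57 and -0.72. Without the low ACT1 3′ arrays, 15 genes were called lower and 0 higher (16.8% of all genes were called in either direction). Of these 15, 14 were also called with all arrays. They were, named after their values were seen, CYC7, CYC1, COX4, COX5B, COX6, COX9, COX14, COX17, COX26, QCR10, COR1, SDH2, SDH3, SDH5 and SDH6. Without NaCl array 2, NaCl array 3 or control 3 alone, 26 genes were called, a count given without the share of all genes. A fit of only the NaCl arrays and their same-day controls called none, with 1 of 5171 genes called. LEU2, deleted in this strain, was called higher under NaCl by 0.95 (adjusted p = 0.0301). The part of RNA quality in the result was not tested.

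**Figure D2:**
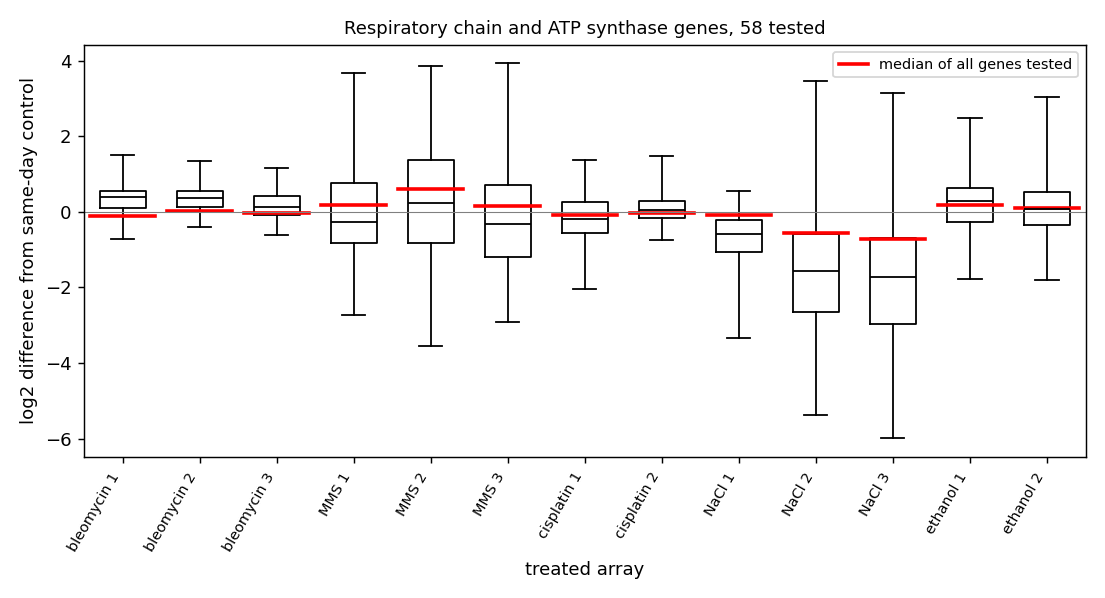
Log2 difference from the same-day control for the 58 tested genes on each of the 13 treated arrays; the box spans the quartiles with the median as a line, whiskers reach the lowest and highest gene, and the red line is the median of all 5171 genes. The boxes of NaCl arrays 2 and 3 lie lowest, with medians of -1.55 and -1.71, and each NaCl median lies below the red line.

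Under MMS these genes moved in both directions. Of the 58, 14 were called higher and 15 lower, where 33.5% of all genes were called higher, 17% lower and 50.5% in either direction. The median of the 58 was -0.03 and that of all genes 0.29. Median scaling in place of quantile normalization gave 18 higher and 12 lower, with 56.8% of all genes called, and moved the median of all genes to 0.40. Complex IV subunits leaned down, with 6 of 11 lower and 1 higher. Many of these subunits have a coding length of at most 450 bases, and 49% of all genes that short were called lower. Complex II had 2 of 4 higher and F1 2 of 5 higher, with none called lower in either. ATP15, the epsilon subunit of F1, lay below all controls on the 3 MMS arrays and was not called at -0.88 ± 0.540. Complex IV assembly factors had 3 of 9 higher and 2 lower, and all 4 complex II assembly factors were called, 2 in each direction. On all 3 MMS arrays 6 genes lay above every control (28.6% of all genes) and 16 below (13.2%).

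SDH2 had the largest rise under MMS. It read 8.87, 8.98 and 9.10 on the 3 MMS arrays, against 4.62 to 8.00 in the controls. The groups did not overlap, and the fitted difference was 3.82 ± 0.334, or 14.1-fold higher (limma adjusted p = 5.27e-06). That size depends on the block. The same-day controls read 5.20, 5.12 and 5.17, and all had a low ACT1 5′ signal, in which class SDH2 was lower. With the ACT1 5′ class as the block the difference was 1.53, still called. COX20, an assembly factor that helps mature the Cox2 protein, read 7.96, 7.84 and 8.03 against 4.65 to 6.51. It too lay above every control, at a difference of 3.09 ± 0.258. SDH8, an assembly factor of complex II, read 7.72, 7.98 and 7.77 against 4.35 to 6.54, and differed by 2.09 ± 0.313. COX15, which makes haem A for complex IV, read 8.06, 8.05 and 8.30 and differed by 2.20 ± 0.374, but overlapped the controls at 5.58 to 8.65.

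The largest falls were among small genes of complexes II and IV. SDH6, an assembly factor of complex II, read 6.66, 6.46 and 6.25 against 7.42 to 10.0, and differed by -3.02 ± 0.462. COX17, a copper chaperone, read 6.72, 6.58 and 6.47 against 7.84 to 9.37, and differed by -2.74 ± 0.440. COX7, a complex IV subunit, read 7.43, 7.07 and 7.22 against 9.26 to 10.2, and differed by -2.72 ± 0.382. COX26 read 5.18, 5.45 and 5.35 against 7.60 to 8.03, and differed by -2.42 ± 0.223. All 4 lay below every control on all 3 arrays.

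Of the isoform pairs, COX5A and COX5B were called in opposite directions under MMS, and of the cytochrome c pair only CYC7 was called. COX5B read 6.07, 5.96 and 5.89, below all controls, and fell by 1.42 ± 0.254 (adjusted p = 0.000734). COX5A read 6.90, 6.90 and 7.01, in the middle of the control range, and differed by 1.43 ± 0.282 (adjusted p = 0.00143). CYC7 read 6.14, 6.17 and 6.17, below all controls, and fell by 1.85 ± 0.307. CYC1 read 5.73, 5.84 and 5.998 and was not called at 0.72 ± 0.297. The differences between the isoforms were not tested.

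Of the other genes named throughout, COR1 rose by 1.73 ± 0.282 under MMS and ATP2 by 1.89 ± 0.388, both within the control range. COX4 fell by 1.14 ± 0.296, a call lost without control 11 or without MMS array 2 (-1.01 in each). ATP1 (0.16 ± 0.333), SDH1 (-0.38 ± 0.255), RIP1 (0.45 ± 0.316), COX6 (-0.60 ± 0.240), COX9 (0.59 ± 0.540) and QCR8 (1.06 ± 0.871) were not called. COX6 nevertheless read 6.98, 6.87 and 6.84, below all controls (7.11 to 8.58). With the ACT1 5′ class as the block it was called lower, at -1.31. QCR8 read 9.74, 9.78 and 9.73 on the MMS arrays. Control 11, which read 5.97, gave a same-day difference of 3.81 where the other 2 pairs gave -0.27 and -0.35.

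**Figure D3:**
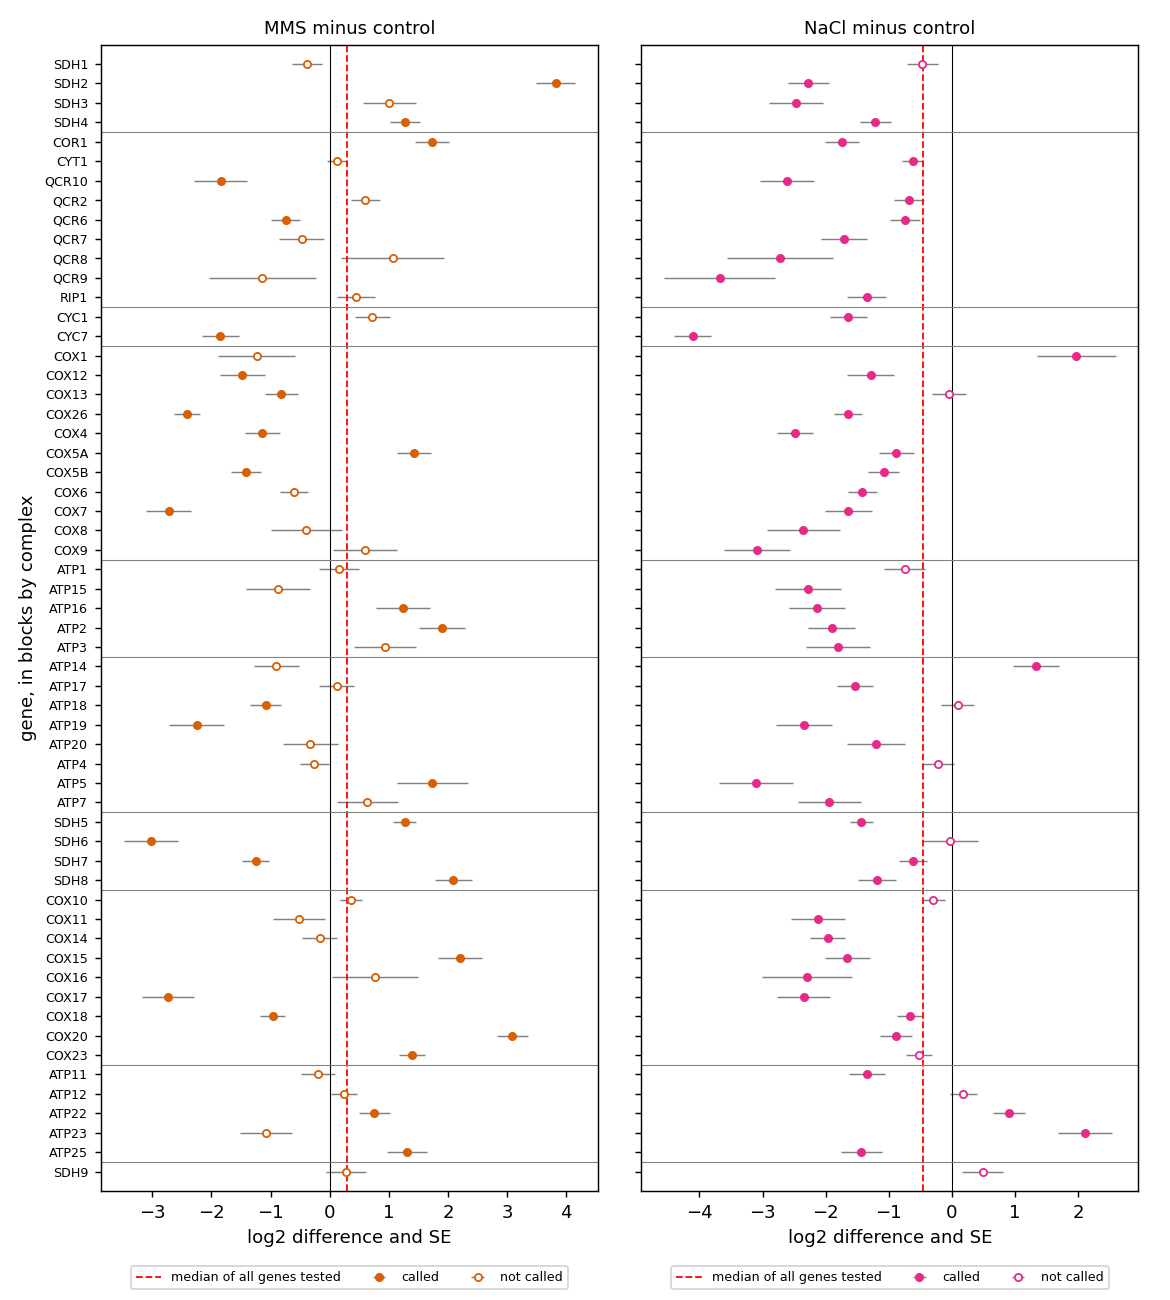
Fitted log2 difference with its SE for the 58 tested genes under MMS (left) and NaCl (right), in blocks by complex; filled points are called, and the dashed line is the median of all genes tested. Under NaCl most points lie left of the dashed line at -0.45, and under MMS they spread from -3.02 (SDH6) to 3.82 (SDH2).

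The same-day controls of MMS all had a low ACT1 5′ signal and the MMS arrays a high one. With the ACT1 5′ class as the block in place of the day, 5 genes were called higher and 19 lower, with 40.2% of all genes called. Of the 29 calls, 18 were the same. SDH2 (1.53), COX20 (1.88), SDH8 (1.52), SDH6 (-1.76), COX17 (-1.73), COX7 (-2.36), COX26 (-2.60), CYC7 (-1.70) and COX5B (-1.37) kept their calls in that fit. COX15 (0.05), ATP2 (0.16), COR1 (-0.028) and COX5A (-0.42) did not, and with no block at all these 4 were not called either.

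Gene length moved with the MMS result. At a limit of 450 bases of coding length with any introns, chosen after the values were seen, 12 of 26 shorter genes fell and 1 rose, while 3 of 32 longer genes fell and 13 rose. Over all genes, 49% of 618 shorter genes fell and 11.3% rose, against 12.7% and 36.5% of 4553 longer genes. Under NaCl, 22 of the 26 shorter and 22 of the 32 longer genes fell, where 39.6% of all shorter and 37.3% of all longer genes did. Whether length plays a part in either result was not tested.

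**Figure D4:**
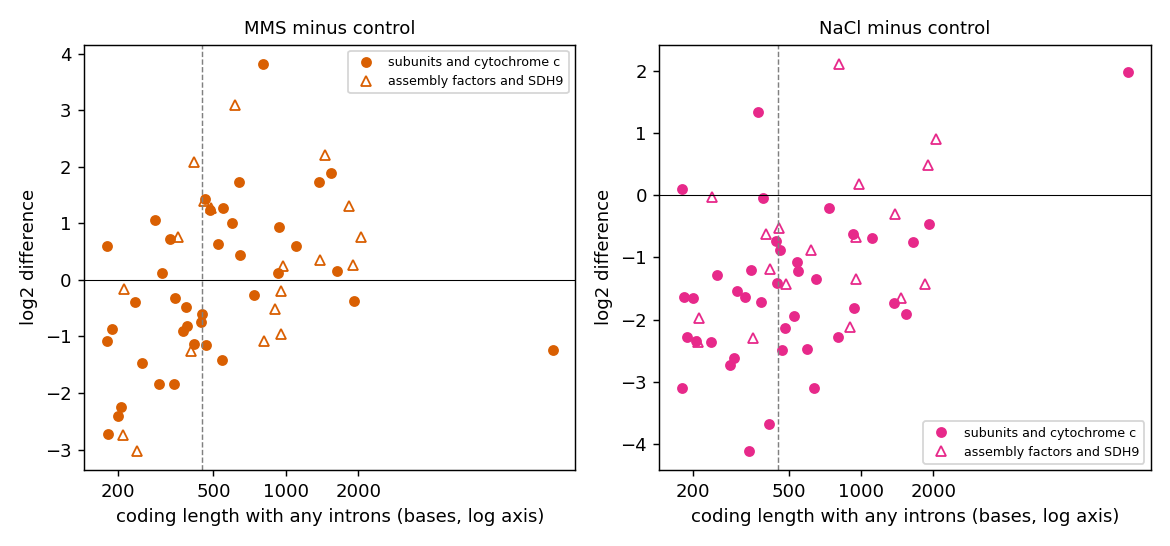
Fitted log2 difference under MMS (left) and NaCl (right) against coding length with any introns on a log axis for the 58 tested genes; filled points are structural genes and triangles assembly factors and SDH9, and the dashed line marks 450 bases. COX1, counted with its introns, is the point at the far right. Under MMS the falls below -2 all lie left of the dashed line.

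Bleomycin called none of the 58 genes with limma, where 1.45% of all genes were called higher, 0.406% lower and 1.86% in either direction. At an unadjusted p below 0.05 there were 6 of 58, the same share as in all genes (10.3%). All 6 were higher, but the share of all genes by direction is not given here. The median of the 58 was 0.15 in the fit against -0.08 for all genes. Against the same-day control alone it was 0.40, 0.36 and 0.12, where all genes gave -0.12, 0.02 and -0.02. In the fit, the day blocks of bleomycin arrays 1 and 2 also hold NaCl arrays, which bear on the estimate. In 26 genes all 3 same-day pairs were higher and in 0 all were lower, where 20.2% and 25.9% of all genes were. COX26 read 8.62, 8.67 and 9.17 and CYC7 9.27, 9.09 and 8.96, each above all 11 controls, as were 7 of the 58 genes in all (5.61% of all genes), while 0 lay below (1.62%). Their differences were 0.87 ± 0.212 (adjusted p = 0.0685) and 1.04 ± 0.292 (adjusted p = 0.120). Without the low ACT1 3′ arrays 7 of the 58 genes were called, all higher. That is near the share of all genes, 10.9%, which counts both directions.

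Cisplatin called none of the 58 genes with limma, where 0.329% of all genes were called higher, 0.135% lower and 0.464% in either direction. At an unadjusted p below 0.05 there were 6 (12.6% of all genes). On both arrays 2 genes lay above every control (5.12% of all genes) and 0 below (1.82%). RIP1 read 5.98 and 7.42 on the 2 arrays and differed by -1.26 ± 0.368 (adjusted p = 0.190). COR1 read 4.07 and 5.18 and differed by -1.09 ± 0.329 (adjusted p = 0.203). Cisplatin array 1 had an ACT1 5′ signal lower than its own control by 5.38 log2 units, and array 2 one lower by 0.13. Without the low ACT1 3′ arrays, none of which is a cisplatin array or its control, 12 genes were called, 6 in each direction, with 19.8% of all genes called.

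Ethanol called 2 of the 58 genes lower and 0 higher, where 1.2% of all genes were called lower, 3.83% higher and 5.03% in either direction. At an unadjusted p below 0.05 there were 10 (23.8% of all genes). On both arrays 8 genes lay above every control (16.7% of all genes) and 9 below (9.42%). COX26 read 6.19 and 5.98, below all controls, and fell by 1.62 ± 0.273 (adjusted p = 0.00979). COX23, an assembly factor of complex IV, read 3.59 and 3.69 against 4.00 to 5.38, and fell by 1.25 ± 0.268 (adjusted p = 0.0252). COX9 read 9.74 and 9.49, above all controls, but was not called at 1.83 ± 0.661. CYC7 read 7.08 and 6.56, below all controls, and was not called at -1.13 ± 0.376. With 1 ethanol array or 1 of its controls left out, COX26 was at -1.80 to -1.44 and COX23 at -1.78 to -0.71. Neither call held in those fits, which rest on 1 same-day pair. Without the low ACT1 3′ arrays 21 genes were called, with 42.6% of all genes called.

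**Figure D5:**
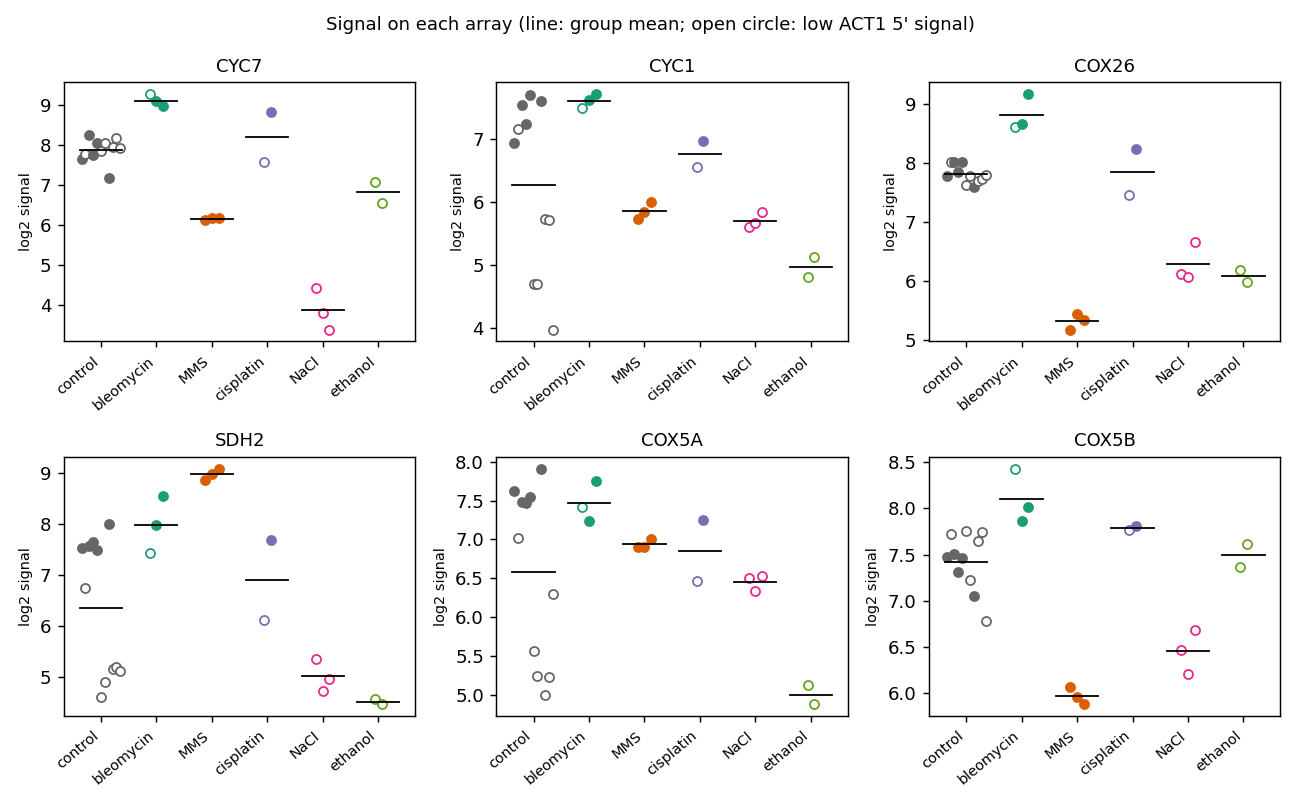
Log2 signal of CYC7, CYC1, COX26, SDH2, COX5A and COX5B on each of the 24 arrays by group; points are arrays, lines group means, and open circles mark arrays with an ACT1 5′ signal below 7.5. COX26 is tight in the controls (7.60 to 8.03), above them under bleomycin and below them under MMS, NaCl and ethanol, while SDH2, CYC1 and COX5A split the controls into a high and a low set.

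Across agents, 25 of the 58 genes were called under 2 agents (27.2% of all genes were) and COX26 alone under 3 (1.76%), namely MMS, NaCl and ethanol. MMS, NaCl and ethanol have no same-day control in common, while bleomycin shares some with NaCl and cisplatin. All agents were fitted with the same estimate of the spread, so these counts are not independent. Set side by side, 12 genes were lower under both MMS and NaCl (3.67% of all genes), and 12 others were higher under MMS and lower under NaCl (15.6%). A further 20 were lower under NaCl and not called under MMS (18.4%). The difference between NaCl and bleomycin, fitted directly, was called in 44 of the 58 genes, 43 of them lower and 1 higher, where 23.5% of all genes were lower, 9.13% higher and 32.6% called in either direction. Ethanol minus NaCl was called in 32, of which 30 were higher and 2 lower, where 26.2% of all genes were higher, 9.77% lower and 36% called. MMS minus bleomycin was called in 24 (36.3% of all genes), with 9 higher (25.9% of all genes) and 15 lower (10.4%). Median scaling gave 12 higher and 8 lower, with 44.2% of all genes called.

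The mitochondrially encoded genes had low signals. The RNA was selected by its poly(A) tail and copied from oligo(dT), and yeast mitochondrial messages are known to lack such tails. COX2 read 2.62 to 3.48, COX3 2.81 to 4.00, ATP8 2.46 to 3.47 and ATP6 3.26 to 5.26 in the controls, and these 4 were not tested. COX1 read 4.37, 5.36 and 6.94 at the lowest, median and highest control. Under MMS it read 5.41, 4.64 and 4.65 and was not called at -1.24 ± 0.646.

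Genes that control or accompany the pathway were taken from lists that are no part of the 64, and their counts stand beside the 37.6% of all genes lower and 14.1% higher under NaCl and the 17% lower and 33.5% higher under MMS. Coenzyme Q synthesis had 10 of 11 tested genes lower under NaCl, and 5 higher and 1 lower under MMS. Further assembly factors had 26 of 42 lower and 3 higher under NaCl, and 7 higher and 13 lower under MMS. Quinone-linked dehydrogenases had 3 of 10 lower and 1 higher under NaCl, and 3 higher and 1 lower under MMS. Genes of mitochondrial transcription and RNA turnover had 3 of 5 lower under NaCl and none called under MMS. ATP synthase associated and inhibitor genes had 3 of 5 lower under NaCl and 2 lower under MMS. Of 11 regulators, 4 (36.4%) were lower under NaCl, a share near that of all genes, and 0 higher, and under MMS 5 were higher and 1 lower. HAP4, the limiting activator subunit of respiratory genes, read 4.55, 4.41 and 5.23 under NaCl against controls of 4.58 to 6.92, and fell by 1.60 ± 0.345 (adjusted p = 0.00470). ROX1, a repressor of hypoxic genes, read 5.05, 5.03 and 5.22 under MMS, above all controls (3.24 to 3.96), and differed by 1.56 ± 0.206 (adjusted p = 8.84e-05). HAP1, a haem-responsive activator, fell by 1.45 ± 0.290 under MMS. INH1, the inhibitor of ATP hydrolysis by ATP synthase, was higher under bleomycin (1.16 ± 0.258, adjusted p = 0.0421) and ethanol (1.60 ± 0.333, adjusted p = 0.0233) and lower under NaCl (-1.57 ± 0.263).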

How the data were processed

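RNA was measured on 24 Affymetrix Yeast Genome S98 arrays, per the labels. The authors deposited 1 log2 signal per probe set and array, from 1.42 to 14.4; the sources used here do not name the software or normalization behind it. Per the labels' protocols, poly(A) RNA was copied with oligo(dT). Here the deposited log2 values were quantile-normalized across arrays with limma 3.58.1 in R 4.3.3. Of 9335 probe sets, 60 control probe sets were left out, 6504 name 1 gene, 328 several and 2443 none; each of 5656 genes was read through the probe set with the highest mean. Genes above the 20th percentile (5171) were fitted with lmFit with 5 agent terms and the day as a block (8 residual degrees of freedom), then eBayes with a trend, and p-values were adjusted by Benjamini-Hochberg over all of them. The number of arrays limits the precision. The method was tested on simulated data. Figures were drawn with matplotlib 3.10.9.

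Members and gene lists were chosen with earlier results of these data known. Per agent, values are given for up to 4 called genes with the largest rise and fall and the same sign in every same-day pair, and for a fixed set of catalytic, isoform and mitochondrially encoded genes; others are named as chosen after their values were seen, or by counts. Same-day pairs come from dates in the labels; deviations of treated array and control from their group means correlated at -0.565 to 0.68, above 0.1 in 6 of 13 pairs and below -0.1 in 5. Control arrays correlated at 0.729 to 0.997, and 0 columns were identical. Gene lengths came from a RefSeq R64 table and hold no UTR. Alternatives covered scaling, filter, pseudocount, day block, probe set choice, ACT1 classes and left-out arrays. No sequence is shown.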

Additional observations from a re-analysis of the deposited data

Results flagged for a closer look

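The extra probe sets of these genes, not used in the comparisons above, were searched under each agent for treated arrays that all lay above every control. A second QCR8 probe set was picked by that rule under MMS, so its lack of overlap is no separate result. It read 5.55 to 5.88 on the 3 MMS arrays and 3.78 to 5.40 on the 11 controls. Its mean difference from the same-day controls was 1.51 log2 units. Of all genes, 28.6% lay above every control under MMS. The probe set used for QCR8 gave 1.06 ± 0.871 under MMS and was not called. The difference of the second probe set was not tested.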

How the results depend on the processing

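Of the counts of genes called, those of MMS stayed within 1.5 times of 29 under every alternative run, between 21 and 39. The counts with 1 array left out stand without the share of all genes called in the same fits. They do not tell a change in these genes from one in all genes. Leaving out 1 array gave 23 to 26 for MMS, 26 to 50 for NaCl, 17 to 26 for MMS minus bleomycin, 17 to 49 for NaCl minus bleomycin, 0 to 45 for ethanol minus NaCl, and 0 for ethanol, bleomycin and cisplatin. Without the 3 arrays with a low ACT1 3′ signal, the counts were 7 for bleomycin, 12 for cisplatin, 15 for NaCl, 21 for ethanol, 38 for MMS minus bleomycin, 27 for NaCl minus bleomycin and 19 for ethanol minus NaCl. Without those arrays 10.9% of all genes were called for bleomycin, 19.8% for cisplatin and 42.6% for ethanol. The shares for the direct differences between agents are not given here. Fits of only the groups compared gave 7 for bleomycin, 0 for NaCl and 16 for ethanol. In these, 9.94%, 0.0193% and 26.2% of all genes were called. Such fits gave 19 for NaCl minus bleomycin (8.43% of all genes) and 0 for ethanol minus NaCl (0%). Without the day block or with the day as a random block, bleomycin had 3 and ethanol 6. With the ACT1 5′ class as block both had 6. Without the trend bleomycin had 1 (2.07% of all genes were called). With a filter at the 40th percentile ethanol had 1 (4.95% of all genes). With the first ethanol array as its own day ethanol had 0 (1.53% of all genes) and ethanol minus NaCl 4 (2.4%). Of all genes, 4.06% were called for bleomycin and 11.7% for ethanol without the day block. With the ACT1 5′ class as block these shares were 5.01% and 11.7%. The causes were not tested.

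Among the named genes, 8 values reversed direction while being called in the main fit, the alternative or both. In the fit with the ACT1 5′ class these were CYC1 (-1.25), COX5A (-0.42), COR1 (-0.028) and RIP1 (-1.45) under MMS, and CYC1 (0.13) and COX5A (0.52) under NaCl. With the mean of its probe sets ATP14 was -0.52 under NaCl, and without the low ACT1 3′ arrays COX1 was -0.26. Of the other values, 1513 neither gained nor lost a call, 54 gained a call and 82 lost it. The 1513 include values called in neither fit, some of which changed sign. The samples were paired by day, and the day is the block of the main fit. With no such replicate block MMS had 21 calls (44.6% of all genes) and NaCl 37 (41%). A low signal near background limits the mitochondrially encoded genes.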
